A study of Glycine max with 6 samples.

Results

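Wide lone regions of ABI5 binding are stretches of at least 700 bp where all 4 ChIP libraries of the series have a called peak and no other such stretch has its midpoint within 2000 bp. ABI5 is the name that the deposited peak lists give to the soybean protein GLYMA.13G153200. The regions were looked for in the outer 25% of the chromosomes at either end, on chromosomes 1 to 20 without chromosome 13. Peaks of different libraries were joined into 1 region wherever 50% or more of the shorter peak was overlapped. The 4 lists joined into 39947 regions, of which 11511 held a peak of every library and 8579 of those lay in these chromosome arms. Of the arm regions, 7560 were lone, and 781 of them (10.3%, 95% exact binomial interval 9.65 to 11.04) were 700 bp or wider. The other 6779 are called narrower below. The called peaks of all 4 libraries chose the members, so the regions were chosen by measured peak positions and widths. Width, enrichment and summit positions are therefore given as a description, with no test between wide and narrower regions.

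The chromatin came from mid-maturation soybean (Glycine max) embryos of the cultivar Williams 82, dissected from seeds of 200 to 250 mg on greenhouse plants kept at 22 to 30 °C with 16 h days. All groups share this genotype, tissue and stage, and the labels name no transgene and no treatment. The labels name 2 biological replicates for each of antibody 1 and antibody 2, raised against different peptides of the protein, which gives 2 libraries per antibody. The libraries are called Ab1-br1 and Ab1-br2 for replicates 1 and 2 of antibody 1, and Ab2-br1 and Ab2-br2 for those of antibody 2. Values given for 4 libraries follow this order. Another 2 libraries, of input chromatin, are the controls and were not analysed here by themselves. The labels name no sample that lacks the protein, and whole embryos pool all their cell types.

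ABI5 (ABSCISIC ACID INSENSITIVE 5) belongs to the basic leucine zipper family, whose members bind DNA as dimers. In Arabidopsis it acts late in the abscisic acid pathway of the seed, where it binds abscisic acid response elements in the promoters of genes for late embryogenesis abundant proteins. Such elements can occur in several copies in 1 promoter. In ChIP-seq, the sonicated fragments, here 100 to 500 bp, reach to either side of a bound element. The peak of a single element can therefore be wider than 1 fragment. Fragments around bound elements that lie near each other can also run together into a wider stretch. Which genes and which DNA sequences lie in the wide regions was not analysed here.

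The 4 libraries differed in list length and depth, and the wide regions are read against that. The lists held 12047, 27768, 23296 and 36189 peaks. The smallest gap between neighbouring peaks of 1 list was 51 to 52 bp. The summit, the position of highest signal, rested on a median of 63, 77, 117 and 77 fragments at the wide regions, as recovered from the deposited values. The quartiles over the wide regions were 43 and 103, 54 and 115, 80 and 175, and 55 and 116. For 1 Poisson count of the size of each median, the 95% interval ran from 48.4 to 80.6, 60.8 to 96.2, 96.8 to 140.2 and 60.8 to 96.2. It gives the counting error at 1 region, not the error of the median. Ab2-br1 had the highest median of fragments at these regions, and Ab1-br1 the shortest list.

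The wide regions were 700 to 2164 bp wide, with a median of 808 bp and quartiles of 740 and 924 bp. The narrower regions had a median of 447 bp. Of the 781, 414 reached 800 bp, 120 reached 1000 bp and 9 reached 1500 bp. Together they spanned 673.6 kb, and 301 regions of 650 to 700 bp stood next to 227 of 700 to 750 bp. The 3 members nearest the limit were 700, 700 and 701 bp wide, and the 3 regions nearest below it were 699 bp each. Fold enrichment, the ChIP signal at the summit over the background expected from the control, ran from 4.50 to 35.1 in these 3 members and from 4.26 to 12.5 in these 3 narrower regions, at the strongest peak of each library.

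**Figure D1:**
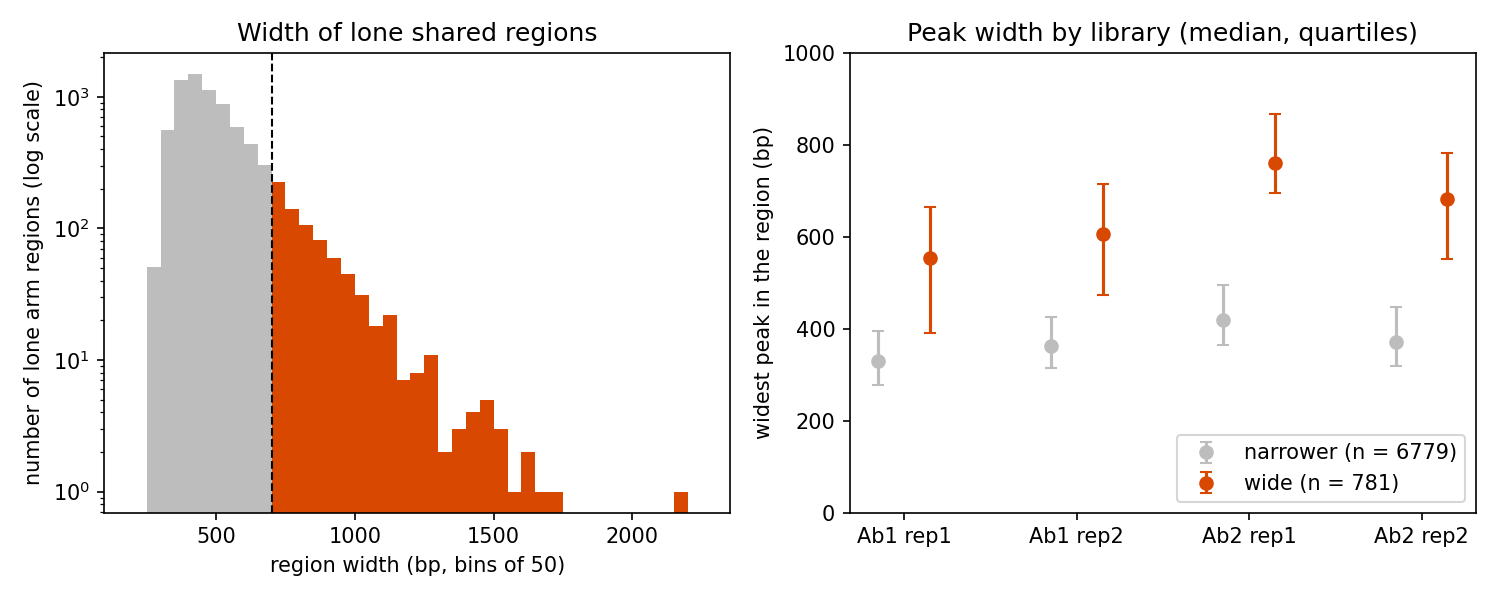
Left, the number of lone shared regions in the chromosome arms (y axis, log scale) by region width (x axis, bp), with the 700 bp limit as a dashed line. Right, the widest peak of each library in a region (y axis, bp; points are medians, bars are quartiles) for antibody 1 (Ab1) and antibody 2 (Ab2), replicates (rep) 1 and 2; the wide regions have medians of 553 to 760 bp and the narrower ones 329 to 420 bp.

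In single libraries the wide regions often held no peak of 700 bp. The widest peak of each library in these regions had a median of 553 bp in Ab1-br1 (quartiles 390.0 and 666), 606 bp in Ab1-br2 (474 and 716), 760.0 bp in Ab2-br1 (696 and 868) and 682 bp in Ab2-br2 (552 and 783). Ab2-br1 was the widest library at the narrower regions too, with 420.0 bp against 329, 362 and 372 bp in the others. A peak of 700 bp or more was present in 157 wide regions (20.1%) in Ab1-br1, in 228 (29.2%) in Ab1-br2, in 578 (74.0%) in Ab2-br1 and in 354 (45.3%) in Ab2-br2. All 4 libraries had one in 93 regions (11.9%), with a median region width of 949 bp. In 353 regions (45.2%) a single library had one, and that library was Ab2-br1 in 251 of them. In 85 regions (10.9%) no library did, so that no single peak was as wide as the region. Without Ab2-br1, the same rule gave 499 wide lone regions. Its larger fragment number moved with its wider peaks, and the part of depth in this was not tested.

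Over the 2 antibodies, the median widest peak at the wide regions averaged 579.5 ± 37.5 bp with antibody 1 and 721 ± 55.2 bp with antibody 2 (SD, n = 2 libraries each). The difference was 141.5 bp. Within replicate 1 antibody 2 was wider by 207 bp, and within replicate 2 by 76 bp. Widths chose these regions, and 251 of them had a peak of 700 bp in Ab2-br1 alone, so the difference is a description of the chosen regions and no test supports it.

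The width was also seen in libraries that had no say in the choice. When regions were formed from the 2 replicate 1 libraries alone by the same rule, 593 were wide and 7094 narrower. The peaks of Ab1-br2 covered a median of 673 bp in these 593 (quartiles 562.5 and 768) and 364 bp in the narrower ones. Those of Ab2-br2 covered 712 bp (614 and 840.0) and 375 bp. At least 99.7% of the 593 had a peak in either library. In the reverse direction, 425 regions were wide in replicate 2, and their covered length in replicate 1 was 603 bp against 331 bp with antibody 1 and 764 bp against 374 bp with antibody 2, over the regions with a peak there. Of these 425, 86.8% had a peak in Ab1-br1 and 98.1% in Ab2-br1. Of the 13706 narrower regions of replicate 2, 45.7% and 77.3% had one, so their medians cover only that part. The widths were thus higher in each of the 4 readings. Regions are not independent replicates, and strength, which recurs between replicates, goes with width, so no test was made. A wider region also has more room for peaks of the other replicate, and the part of this in the covered length was not tested.

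**Figure D2:**
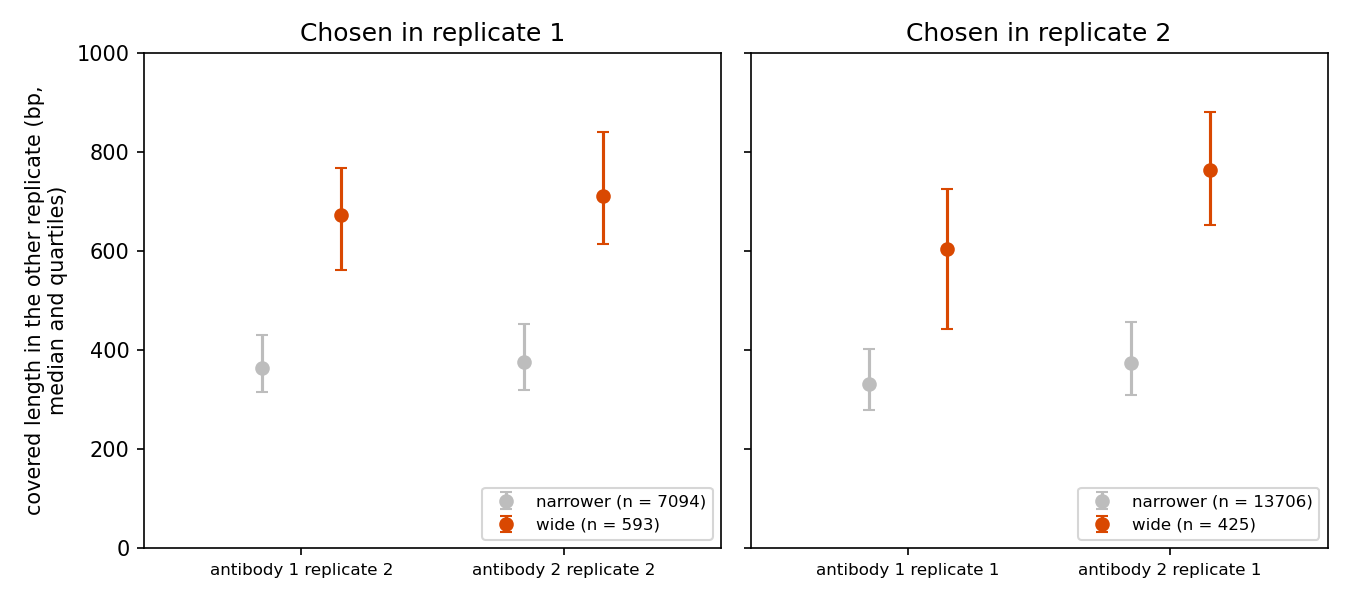
Covered length in bp (y axis; points are medians, bars are quartiles, over regions with a peak in the library read) in the replicate that was not used to choose the regions, for each library (x axis). The wide regions sit at 603 to 764 bp and the narrower ones at 331 to 375 bp.

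The 781 regions fell into 3 forms. In 457 (58.5%, 95% exact binomial interval 55.0 to 62.0) each library had 1 peak and the 4 summits lay within 100 bp. These are called single broad sites below, a name for the joined region and not for the peak of each library. A peak of 700 bp or more was present in all 4 libraries in 66 of these 457, in 1 library in 211 and in none in 53. In 203 (26.0%, 22.9 to 29.2) at least 1 library had 2 or more peaks. In the remaining 121 (15.5%, 13.03 to 18.2) each library had 1 peak but the summits lay more than 100 bp apart. The last 2 forms are called composite below and make up 324 regions (41.5%, 38.0 to 45.0). Among the narrower regions, 92.5% had the first form, 7.24% the third and 0.280% the second, where a narrow region leaves little room for several peaks. The composite regions were wider than the others, with a median of 868 bp against 780.0 bp.

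The single broad sites were more enriched than the composite regions, and regions of each form were more enriched when wide. Median fold enrichment in the 457 was 8.82, 13.4, 11.6 and 14.0. In the 324 composite regions it was 5.84, 8.93, 8.15 and 9.84 in the same order, and in the narrower regions 5.29, 8.48, 7.20 and 8.88. The order single, composite, narrower was the same in all 4 libraries. Narrower regions also differed by form. Those with 1 peak per library and summits within 100 bp had medians of 5.45, 8.73, 7.36 and 9.12, and those with summits farther apart 4.18, 6.06, 5.60 and 6.56. Wide regions with 1 peak per library and summits farther apart had 5.52, 8.11, 7.75 and 9.25, above the narrower regions of their own form in every library. Over all wide regions the median was 7.24, 11.3, 9.89 and 11.8, which is 1.35 ± 0.0243 times that of the narrower regions (mean and SD over the 4 libraries of the within-library ratio). In each single library some wide regions had low values, and fold enrichment began at 2.31, 3.00, 2.27 and 3.40. A low value in 1 library does not make a region weak in all. The region with 2.31 in Ab1-br1 had 9.11 in Ab1-br2 and 8.29 in Ab2-br2. The control background at the summit was nearly the same in both sets, with medians of 7.22, 5.78, 7.35 and 5.65 fragments at the wide and 7, 5.78, 7.11 and 5.43 at the narrower regions. Here and below, the background of the replicate 1 libraries is on the scaled-down scale of the peak caller. Their fragment numbers are not, so the 2 do not give the fold enrichment directly.

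The 7560 lone regions were divided into 10 equal classes by fold enrichment in each library, and the wide share rose with strength. Fold enrichment and width come from the same called peaks, so the rise is a description. The part of the peak calling in it was not tested. In the highest class 28.2%, 25.8%, 29.1% and 28.2% of the regions were wide, and in the lowest 5.95%, 7.54%, 4.76% and 5.29%. The single broad sites carried most of this rise. In the highest class they made up 22.0%, 20.8%, 22.0% and 21.7% of the regions, against 2.65%, 2.65%, 1.46% and 1.85% in the lowest. The composite regions went from 3.31%, 4.89%, 3.31% and 3.44% in the lowest class to 6.22%, 5.03%, 7.14% and 6.48% in the highest. The composite form was thus present at every strength, and in Ab1-br2 its share in the lowest and the highest class was nearly equal.

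**Figure D3:**
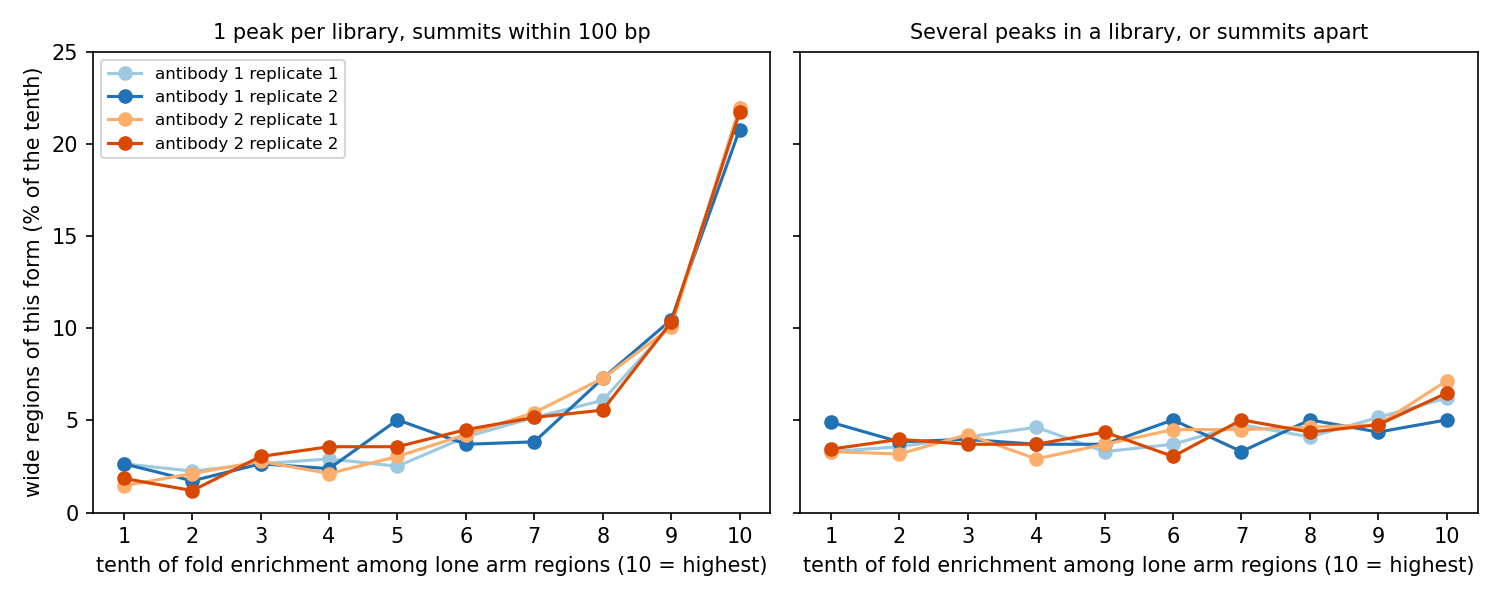
The share of lone arm regions (y axis, %) that were wide single sites (left) or wide composite regions (right) in each class of fold enrichment (x axis, 10 is the highest), with a line for each library. Single sites climb to between 20.8% and 22.0% in the highest class, and composite regions stay between 2.91% and 7.14% in all classes and libraries.

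Several summits lay in many of the wide regions. Summits of all libraries in a region were counted as 1 position when each lay within 150 bp of the next. By this count 517 wide regions (66.2%) had 1 position, 247 (31.6%) had 2, 14 had 3 and 3 had 4. Of the narrower regions 99.0% had 1 position and the other 67 had 2. Regions with 1 position had a median width of 780.0 bp, those with 2 had 881 bp and those with 3 had 1222 bp.

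The number of peaks called in a wide region differed between libraries. Ab1-br2 had several peaks in 126 wide regions (16.1%) and Ab2-br2 in 134 (17.2%). Ab1-br1 had them in 62 (7.94%) and Ab2-br1 in 18 (2.30%). The replicate 2 libraries thus split the regions more often than the replicate 1 libraries with either antibody. Neighbouring summits of 1 library had a median distance of 487 bp over the 349 pairs (quartiles 430.0 and 581), which was 502, 481, 605.5 and 478 bp in the 4 libraries. The gap between the called peaks had a median of 123 bp and reached 538 bp. In lists of equal length the share of wide regions with several peaks in a library was 13.6%, and with reciprocal overlap of 50% it was 0%. The weaker peak of a pair had a median of 0.612 times the fold enrichment of the stronger.

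Peaks of 1 library are joined into a region only through a peak of another library that overlaps them, so a stretch split in all 4 libraries would as a rule form separate regions, and 0 were seen. Of the 203 with several peaks in a library, 97 were split in 1 library, 75 in 2 and 31 in 3. Both replicate 2 libraries split 78 of them, and both replicate 1 libraries 5. Both antibody 1 libraries split 40, both antibody 2 libraries 4, and Ab1-br1 together with Ab2-br2 31. Ab2-br1 split 18 in all, which limits the count of any pair that includes it. In 185 of the 203 (91.1%, 95% exact binomial interval 86.3 to 94.7) Ab2-br1 had a single peak. Exactly 2 peaks were called in at least 2 libraries in 103 regions. In 82 of these (79.6%, 70.5 to 86.9) the stronger peak was on the same side in every library that split the region, and in 59 (57.3%, 47.2 to 67.0) the summit distances of those libraries agreed within 50 bp.

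The strongest summits of the 4 libraries, those of highest fold enrichment in the region, mostly coincided. The distance between the outermost of the 4 summits had a median of 48 bp at the wide and 43 bp at the narrower regions. It was at most 100 bp in 597 wide regions (76.4%, 73.3 to 79.4) and in 92.6% of the narrower ones. In steps of 100 bp, 58 wide regions lay between 100 and 200 bp, 25 between 200 and 300 bp, 38 between 300 and 400 bp and 42 between 400 and 500 bp. From 500 bp the numbers were 13, 5 and 3 in the same steps. The numbers were thus somewhat higher at 300 to 500 bp than at 200 to 300 bp. Of the narrower regions 21 exceeded 300 bp in all, where their width leaves less room.

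**Figure D4:**
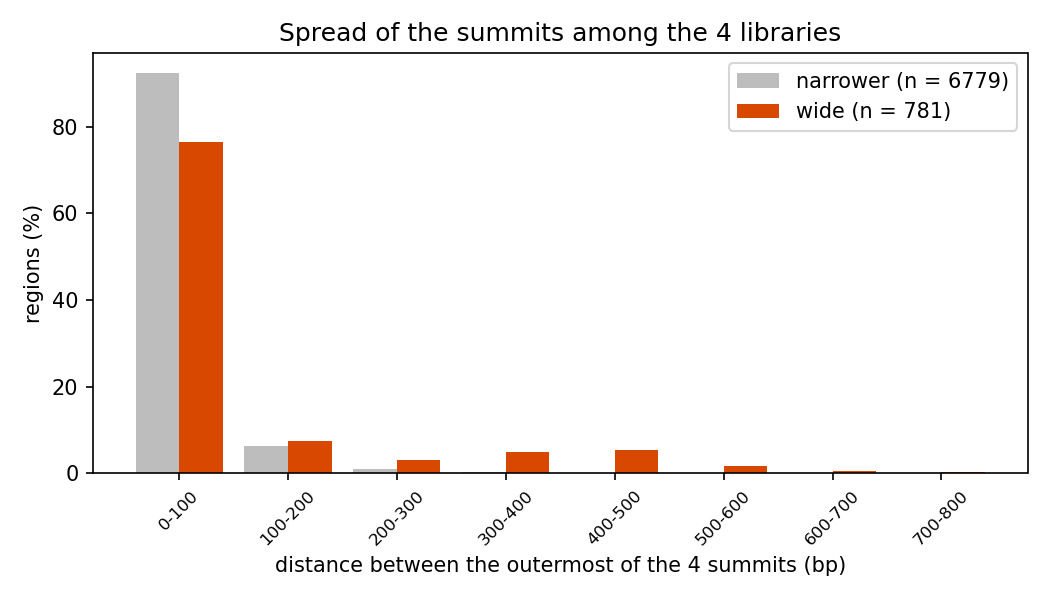
The share of wide and of narrower regions (y axis, %) by the distance between the outermost of the 4 libraries' strongest summits (x axis, in equal steps of 100 bp). Both sets are concentrated below 100 bp, and of the wide regions 25 lie at 200 to 300 bp, 38 at 300 to 400 bp and 42 at 400 to 500 bp.

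In 152 wide regions the summits were more than 150 bp apart. Divided at their largest gap, 1 library stood apart from the other 3 in 104 of them (68.4%), which was Ab2-br2 in 38, Ab1-br1 in 28, Ab1-br2 in 20 and Ab2-br1 in 18. In the others the libraries stood 2 against 2. The libraries of the same antibody went together in 22 and those of the same replicate in 21, while the crossed pairs did so in 5. Most of these regions thus had summits divided neither by antibody nor by replicate.

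The peaks of the wide regions were also lopsided. The long side of the strongest peak, measured from its summit, was a median of 1.51, 1.61, 1.86 and 1.83 times the short side in the 4 libraries. At the narrower regions it was 1.24, 1.20, 1.20 and 1.22 times. Of the 578 wide regions with 1 peak per library, 306 (52.9%) had the long side in the same direction in all 4 libraries, towards higher coordinates in 133 and lower in 173. This was so in 24.7% of the 6760 narrower regions with 1 peak per library. In 125 of the 578 (21.6%, 18.3 to 25.2) it was at least 1.5 times the short side in every library too, against 1.39% of those narrower regions. A clearly longer side in 1 direction thus recurred in all 4 libraries in these 125 regions.

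The widest region, on chromosome 10 at 47753607 to 47755770, shows how the calls differed between libraries. Ab2-br1 had 1 peak of 2164 bp there, with fold enrichment 18.4 at a summit near its right end. Ab2-br2 had 3 peaks with 11.8, 7.88 and 18.9 from left to right. Ab1-br1 had 3 peaks with 10.8, 6.67 and 15.1. Ab1-br2 had 4 with 12.9, 7.73, 5.60 and 19.4. The rightmost site was the strongest in every library, and its 4 summits lay within 35 bp.

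The second, on chromosome 2 at 10715425 to 10717162, had a broad main peak of 1267 to 1614 bp in every library, with fold enrichment 14.5 and 11.1 for antibody 1 and 17.8 and 12.2 for antibody 2. Both antibody 2 libraries had a small further peak at its right edge, of 3.24 and 4.21. The main peak of Ab1-br2 ran over this place, to 10717126, and that of Ab1-br1 ended before it, at 10716691. On chromosome 20, the region at 36867011 to 36868664 had 2 peaks in 3 libraries and a single one of 1651 bp in Ab2-br1. Its main summit reached 20.1 and 17.7 in replicate 2 and 8.46 and 9.38 in replicate 1. The main summit had 121 fragments in Ab1-br2 and 112 in Ab1-br1, and 104 in Ab2-br2 and 174 in Ab2-br1. The control background there, scaled as said above, was 12 and 13 fragments in replicate 1 and 5.06 and 4.95 in replicate 2.

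The next 2 widest regions differed in form. That on chromosome 10 at 48806681 to 48808327 was 1 peak of 1562 and 1621 bp in the replicate 1 libraries and 2 peaks in the replicate 2 libraries, with fold enrichment 21.8 and 10.9 for antibody 1 and 19.9 and 13.3 for antibody 2. That on chromosome 7 at 6304522 to 6306157 was 1 peak of 1227 to 1636 bp in each library, with summits within 34 bp and fold enrichment from 16.5 to 20.8. It was a single broad site, the widest with this form.

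**Figure D5:**
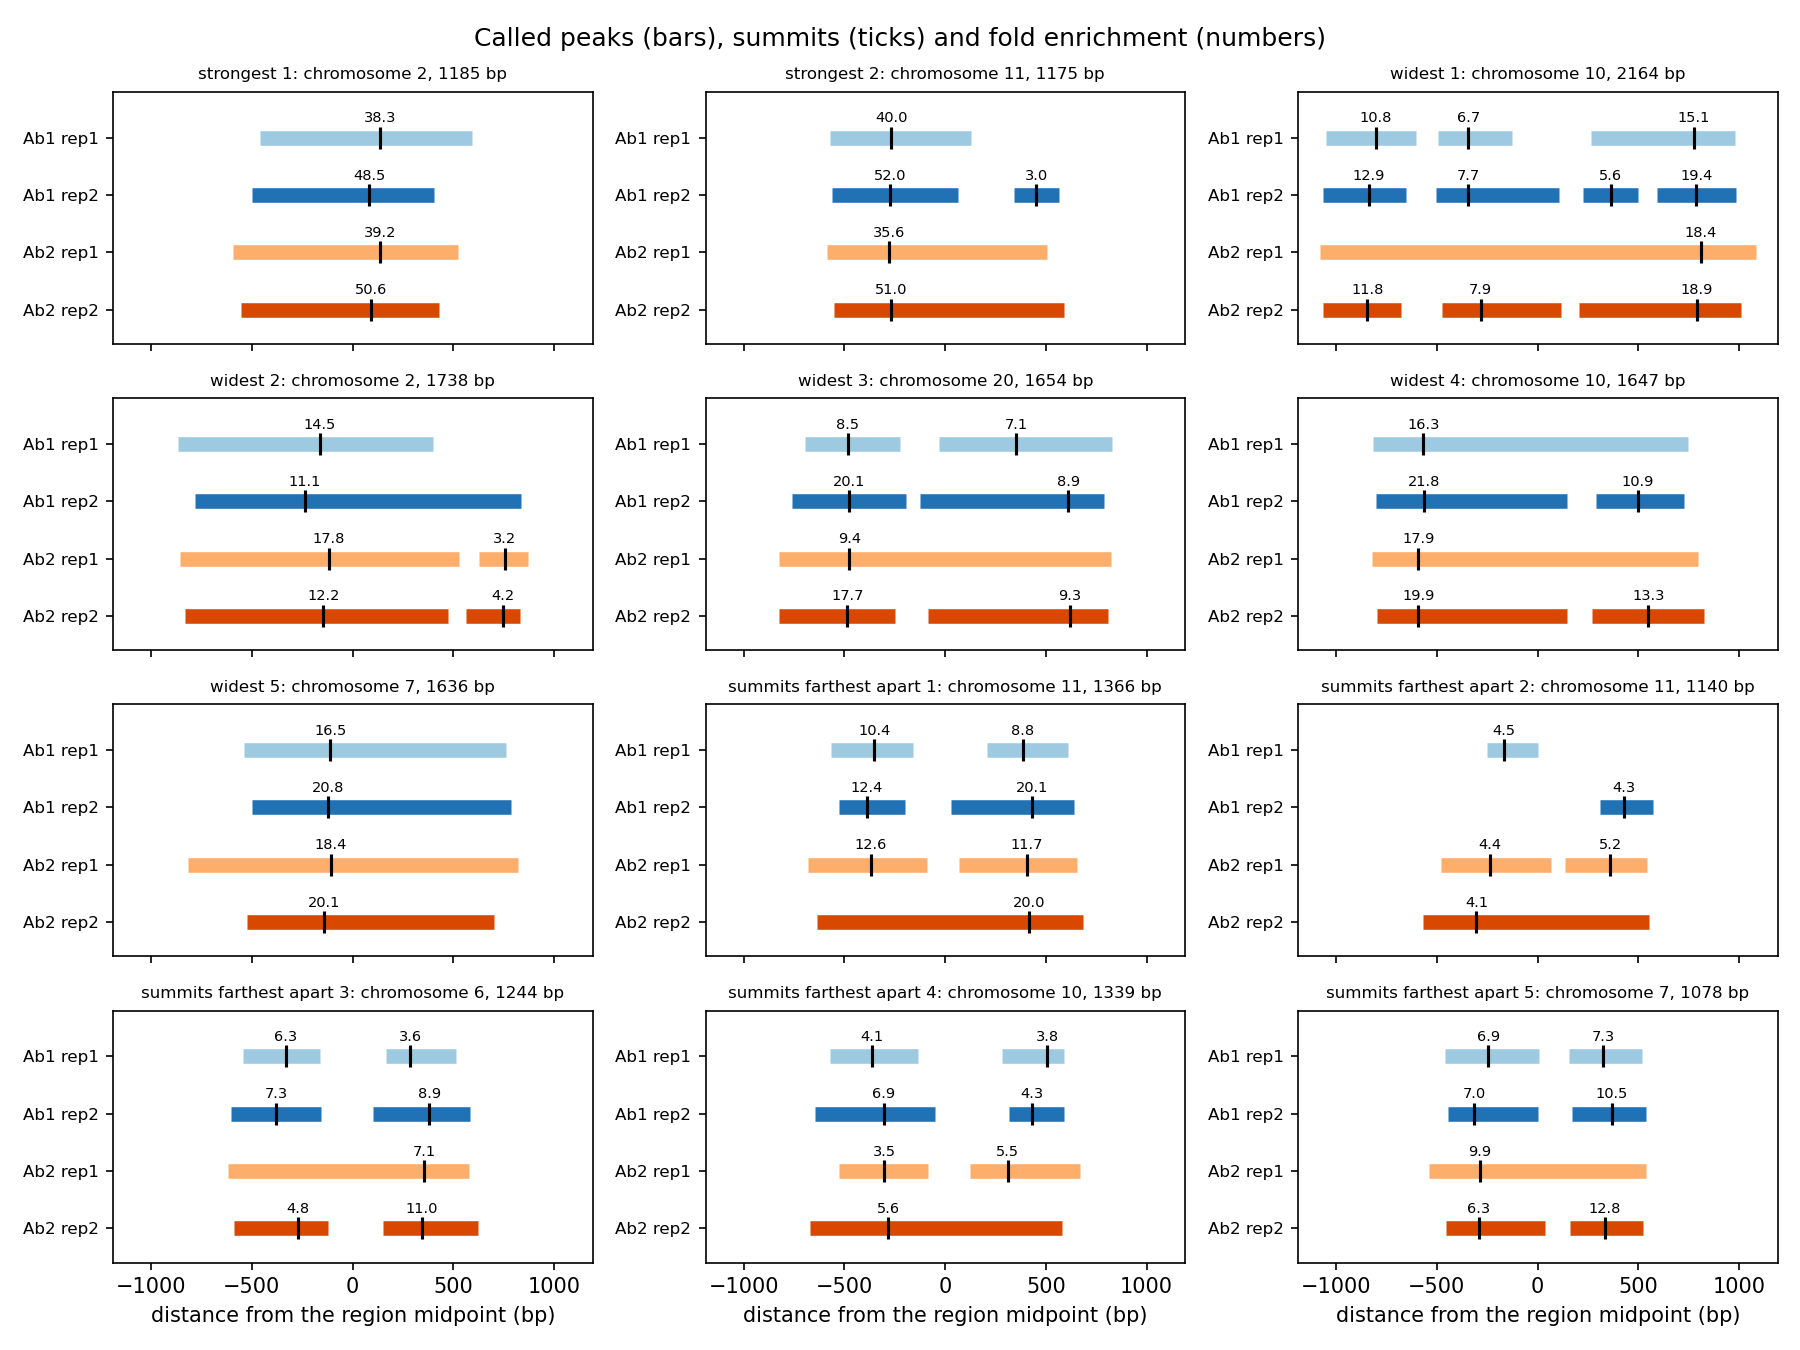
Called peaks (bars), summits (ticks) and fold enrichment (numbers) of each library (y axis; Ab1 and Ab2 are antibodies 1 and 2, rep is the replicate) at 12 wide regions, by distance from the region's midpoint (x axis, bp). The 2 strongest, the 5 widest and the 5 with summits farthest apart are shown. The number of called peaks differs between libraries in most of them. On chromosome 11 at 1135477 to 1136616, Ab1 rep 1 has the left site alone and Ab1 rep 2 the right site alone.

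Where the 4 strongest summits lay farthest apart, the libraries differed in which of 2 sites had the higher fold enrichment. On chromosome 11 at 31080996 to 31082361 the left and right peaks had fold enrichment 10.4 and 8.77 in Ab1-br1, and 12.6 and 11.7 in Ab2-br1, so that the left was higher in replicate 1. By fragments the right led in these libraries instead, with 92 against 89 in Ab1-br1 and 159 against 143 in Ab2-br1, and the control background was lower on the left, at 7.46 against 9.32 and 7.58 against 9.24. In replicate 2 the right peak was higher with antibody 1, at 20.1 against 12.4, and the single peak of antibody 2 had its summit on the right. The strongest summits were 797 bp apart. The next, on chromosome 11 at 1135477 to 1136616, was weak throughout, with fold enrichment from 4.14 to 5.19 at the strongest summits and 23 to 50 fragments. There Ab1-br1 called the left site alone and Ab1-br2 the right site alone. Summits were 713 bp apart on chromosome 6 at 8106176 to 8107419. There Ab1-br1 had the higher fold enrichment on the left, at 6.27 against 3.65, but 46 fragments on the left and 59 on the right, with a background of 6.29 and 15. The distance was 674 bp for the region on chromosome 10 at 42312316 to 42313654 and 655 bp for that on chromosome 7 at 36251635 to 36252712.

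The 15 strongest wide regions, ranked by fold enrichment as a percentile of each list, taking the lowest of the 4, were mostly single broad sites. In 13 of them each library had 1 peak and the summits lay within 100 bp. All 15 together were 717 to 1319 bp wide, lay on 11 chromosomes, and had fold enrichments from 25.1 to 52.0. The first, on chromosome 2 at 11676089 to 11677273, had peaks of 1053 and 904 bp for antibody 1 and 1115 and 983 bp for antibody 2, resting on 295, 286, 398 and 289 fragments. The second, on chromosome 11 at 2852694 to 2853868, was 1 of the 2 exceptions. Its main peak was 702 and 627 bp wide with antibody 1 and 1094 and 1139 bp with antibody 2, and Ab1-br2 had a further peak of 2.97 in fold enrichment and 21 fragments on its right. The other exception, on chromosome 19 at 6471175 to 6472168, was split in Ab2-br2 alone, into peaks of 34.3 and 7.32.

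A pair of the 15 lay near each other on chromosome 18, at 55165916 to 55166727 and 55169059 to 55169998, with midpoints 3.21 kb apart. The first had fold enrichment 31.0 and 40.2 for antibody 1 and 32.0 and 38.6 for antibody 2, and the second 30.3 and 39.4, and 32.6 and 33.1. Among the strongest, the widest was on chromosome 1 at 8126596 to 8127914, with peaks of 1068 to 1319 bp. Its fold enrichment was higher in replicate 2, at 51.3 and 44.2, than in replicate 1, at 30.2 and 26.1. Summit fragments were 310 against 309 with antibody 1 and 293 against 382 with antibody 2, and the control background was 5.06 and 5.65 in replicate 2 and 9 and 10 in replicate 1. With a limit of 2 times, the background was counted as raised in replicate 1 only at 24 wide regions and in replicate 2 only at 24. At the narrower regions these counts were 150 and 213.

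The same ranking gives the 3 weakest wide regions. That on chromosome 9 at 41192003 to 41192711 had fold enrichment 2.31 in Ab1-br1 and 9.11, 5.31 and 8.29 in the other libraries, and 1 peak of Ab2-br1 spanned its 709 bp. That on chromosome 20 at 38846004 to 38846745 was weak in every library, at 2.27 to 4.59, and its summits were 349 bp apart. That on chromosome 19 at 45664714 to 45665450 had 2.40, 5.14, 4.83 and 8.87. The control background in the 4 libraries was 15, 5.81, 14 and 6.36 at the region on chromosome 9. It was 12, 5.81, 11 and 5.43 at that on chromosome 19, and 6.29, 7.23, 12 and 7.07 at that on chromosome 20.

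Libraries ranked the wide regions alike. Spearman's rho of fold enrichment over the 781 regions between the antibodies was 0.912 for replicate 1 and 0.889 for replicate 2. It was 0.825 and 0.838 between the replicates with antibodies 1 and 2. Over the narrower regions these values were 0.843, 0.858, 0.654 and 0.694. Fold enrichment varied less there in every library, with quartiles of 4.26 and 7.24 in Ab1-br1 against 4.92 and 11.9 at the wide regions. The part of this in the lower values was not tested. The covered length of the wide regions was ranked less alike, with rho from 0.322 to 0.575 over the 6 pairs of libraries, where the choice by width limits its range. For covered length the narrower regions had the higher values, from 0.549 to 0.727. These coefficients are across regions that share libraries, and are given as a description.

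Wide regions occurred on all chromosomes examined, at between 0.967 per Mb of arm on chromosome 15 and 2.37 on chromosome 11. Their share of the lone regions ran from 6.36% on chromosome 15 (25 of 393, 95% exact binomial interval 4.16 to 9.25) and 7.33% on chromosome 8 (31 of 423, 5.03 to 10.2) to 13.5% on chromosome 9 (54 of 399, 10.3 to 17.3). The lower bound on chromosome 9 was just above the overall share, and on every chromosome other than these 3 the interval held it. The intervals take regions as independent, many chromosomes were looked at, and the overall share includes each of them. The shares are therefore a description, and no difference between chromosomes was tested. Along the arms the share had no steady course, with 10.3% in the outermost 5% of the chromosome, 10.9%, 9.39% and 11.5% in the next 3 steps of 5%, and 9.45% in the innermost. It was 9.73% in the arms at the start of the chromosomes and 10.9% in those at the end. The median distance from the chromosome end was 4.70 Mb for the wide and 4.67 Mb for the narrower regions.

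The wide regions had neighbours a little more often, although the rule keeps other shared regions away. The nearest region of all 4 libraries lay at a median of 13.2 kb, against 16.1 kb for the narrower regions. Of the wide regions 231 (29.6%, 26.4 to 32.9) had a region called in 1 to 3 libraries with its midpoint within 2000 bp, against 24.9% of the narrower ones (23.8 to 25.9). Counted from the edges, which allows for the greater width, 183 (23.4%, 20.5 to 26.6) had one within 1000 bp, against 16.7% (15.8 to 17.6). Of the 205 such neighbours, 60 were called in 3 libraries, 50 in 2 and 95 in 1. In lists of equal length the share with a midpoint within 2000 bp was 9.76%.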

How the data were processed

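The submitters' processing notes name Bowtie 0.12.7 and MACS3. The names of the deposited lists carry a q-value of 0.01, and each library has its own list. The genome build is not given in the sources used here, nor are the options of the peak caller. Fold enrichment is the deposited ratio of ChIP signal to control background at each summit, and the −log10 p and −log10 q are the deposited values of the authors' peak caller. These are the authors' own values for each peak. The deposited score was 10 times −log10 q, truncated, and was not used. Coordinates are those of the lists, counted from 1.

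Fragments and background at each summit were recovered by solving fold enrichment and −log10 p together (Poisson tail), with replicate 1 pileups divided by 0.973 (antibody 1) and 0.749 (antibody 2), factors at which low pileups became whole. Intervals are at 95% and cover counting error only. The factors were taken as down-scaling to the control. The background was not divided by them, so in replicate 1 it is on the scaled-down scale and the fragments are not. Linking and recovery were tested on simulated data (Python 3.11.15, NumPy 2.4.6, SciPy 1.17.1).

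Members and lists were chosen with earlier results of these data known. Named regions are the 15 strongest, the 5 widest, the 5 with summits farthest apart, the 3 weakest and the 3 on either side of 700 bp. The forms, lopsided peaks, counts of summit positions and neighbours counted from region edges were defined after the peaks were seen. The positions in the gene table at hand did not match the lists: its last genes ended up to 5.04 Mb beyond the last peak and, on 5 chromosomes, before it. No genes or motifs were therefore analysed here. The replicates are biological per the labels, and regions are not replicates. The planned permutation test of the antibodies is not reported, because widths chose the regions and 2 against 2 libraries cannot pass a threshold. Alternatives are in the closing section.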

Additional observations from a re-analysis of the deposited data

Results flagged for a closer look

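Between the antibodies, the change from replicate 1 to replicate 2 at the wide regions went in opposite directions in 4 measures. The difference between the antibodies was not tested, since each change rests on 1 library against 1. The median widest peak was 53 bp wider in replicate 2 with antibody 1 and fell by 78 bp with antibody 2, a difference of 131 bp between the changes. The median covered length rose by 77 bp and fell by 53 bp, a difference of 130 bp. The share of wide regions with a peak of 700 bp was 9.09 percentage points higher and fell by 28.7 points, a difference of 37.8. The ratio of the long to the short side was 0.0990 higher and fell by 0.0307, a difference of 0.130.

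The share of wide regions with several peaks in a library differed between the antibodies in opposite directions in the 2 replicates. In replicate 1 antibody 2 was lower, by -5.63 percentage points, and in replicate 2 it was 1.02 points higher, so that the 2 differences were -6.66 points apart, and this was not tested. At the summits of these regions antibody 2 replicate 1 had a median of 117 fragments and the other libraries 63 to 77.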

How the results depend on the processing

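The number of wide regions, 781, became 1520 at 600 bp and 414 at 800 bp, 499 to 776 without 1 library (lowest without antibody 2 replicate 1), and stayed within 1.5 times otherwise. The ratio of fold enrichment, 1.35, became 1.46 at 800 bp, 1.51 with reciprocal overlap of 50% and 1.32 with lists of equal length, and was 1.37 to 1.58 without 1 library. With summit fragments in its place it was 1.40, and with −log10 q 1.74. The share with several peaks, 26.0%, became 14.3% at 600 bp, 37.4% at 800 bp, 13.6% with lists of equal length and 0% with reciprocal overlap, which by its construction cannot link 1 peak to 2 that each cover under 50% of it, and was 20.1% to 23.8% without 1 library. The share with summits within 100 bp, 76.4%, became 79.9% at 600 bp, 79.6% with reciprocal overlap and 82.4% with lists of equal length, and 75.6% to 83.1% without 1 library. The share with a neighbour of fewer libraries, 29.6%, became 40.4% with reciprocal overlap and 9.76% with lists of equal length, which hold fewer peaks, and 20.4% to 29.9% without 1 library. The mean of the library medians of peak width, 650.3 bp, was 667.7 to 678.3 bp without 1 library. Other causes were not tested. Of 80 alternative values, 52 were labelled as unchanged. The limit was 1.5 times for the number of regions and the exact binomial interval of the main value for shares. For widths and ratios it was the SD over libraries, or over replicates for the antibody difference. The antibody difference with the replicate block and with mean width was judged instead by the side of a p threshold. So few libraries cannot pass that threshold, so these labels carry no information. The labels of the antibody difference within a single replicate carry none either. Of 2 values, each always lies within their SD of the mean, so only a change of sign could have altered the label. All 4 labels of the antibody difference are among the 52. For the shares the values of the narrower regions were not computed under the alternatives.

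With the replicate block the antibody difference in peak width was 141.5 bp too, a description since widths chose the regions, and it was 76 to 207 bp within a single replicate. Replicate differences of the 2 antibodies correlated over the wide regions with r = 0.271 for covered length and 0.654 for fold enrichment. Libraries of 1 replicate also had like control backgrounds, whose part in this was not tested, and 2 pairs do not settle whether the numbers pair the libraries. The covered length of wide over narrower regions in the replicate not used for the choice was 1.87 times, and 1.93 times with the replicates exchanged. The motif search was not run, and the comparison within classes of fold enrichment gives no single value.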

Other observations

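Among the wide regions, 16 (2.05%, 95% exact binomial interval 1.18 to 3.31) had at least 2 times the fold enrichment in replicate 2 as in replicate 1 with both antibodies, and 0 the reverse. Among the narrower regions 246 (3.63%, 3.20 to 4.10) and 2 did so. Fold enrichment is relative to each library's own background, so these counts describe the lists. Of the 912 shared arm regions of 700 bp or more, 781 (85.6%, 83.2 to 87.8) were lone.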
